A study of Bos taurus with 90 samples.

Results

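Mature miRNAs of 2 genomic loci, 5 in all, were followed through 5 tissues of dairy cows: miR-423-3p and miR-423-5p, which are the 2 arms of 1 hairpin, and miR-425-3p, miR-425-5p and miR-191, which come from 2 neighbouring hairpins. They were taken by name from the deposited tables, and they were selected on measured values as well, since the direction of their diet differences in jejunum and liver was part of the reason for choosing them. These diet differences are therefore given as a description with no test. All 5 were listed in every tissue, among 388 miRNAs listed in any tissue and 289 listed in all 5 tissues.

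The libraries came from mid-lactation Chinese Holstein cows fed a diet based on alfalfa hay, corn stover or rice straw, with 6 cows in each diet group. Small RNA was sequenced from rumen epithelium, duodenum epithelium, jejunum epithelium, liver and mammary gland, giving 90 libraries in 15 groups of 6. The only difference named between the groups of cows was the forage, so all cows shared breed and lactation stage and every group received 1 of the 3 forages. Values are CPM, the read count of a miRNA scaled to 1000000 mapped reads, which is a share of each library, so that a lower share can mean fewer cells of a type, less RNA per cell or more of another miRNA, which cannot be told apart.

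A miRNA hairpin is cut into a duplex with a 5p and a 3p arm, and usually 1 arm is loaded into an Argonaute protein and kept while the other is degraded. In the bovine RefSeq annotation (ARS-UCD2.0) MIR423 lies within the span of NSRP1, a gene for a splicing regulator, and MIR191 and MIR425 are direct neighbours between NDUFAF3 and DALRD3. In humans miR-425 and miR-191 are known to come from 1 primary transcript, and miR-191 in this naming is the 5p product of its hairpin. Both miR-191 and miR-423 are in wide use as reference miRNAs that RT-qPCR data are normalised to, which rests on their level being steady.

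Depth, recovered from the step that 1 read adds to the CPM, ran from 937556 to 15621501 mapped reads per library with a median of 5778304.5, so 3 reads correspond to 0.192 to 3.20 CPM. Each member had at least 1 read in all 90 libraries, and intervals or floors from reads cover counting error only. Defining markers matched the labels: liver-specific miR-122 was between 8671 and 12721 CPM in liver and at most 48.5 CPM in mammary gland, and the summed CPM of miR-192, miR-194 and miR-215 was 144396 to 411412 in the 2 intestinal tissues and at most 4561 in rumen and mammary gland, with liver between at 122056 to 195995. Liver alfalfa hay library 2 stood against its group, with 1525 CPM of miR-205, a miRNA of stratified epithelium, against at most 13.0 CPM in the other 17 liver libraries and at least 23016 CPM in rumen. Rumen was not the only tissue with miRNAs of stratified epithelium: their summed CPM was 25814 to 54759 in rumen and 879 to 9101 in mammary gland. The origin of the miR-205 in this library was not tested. In mammary gland 4 libraries stood apart from the rest of their tissue (rice straw 1, 4 and 5 and alfalfa hay 1), with a median absolute log2 deviation from the tissue median of 0.72 to 1.51 against at most 0.56 in the other 86 libraries, and 3 of them had fewer than 2000000 reads. In these 4 the summed CPM of the 5 epithelial markers was 10598 to 31854 against 32549 to 67448 in the other 14 mammary gland libraries, and the summed CPM of 4 smooth muscle miRNAs was 176541 to 213402 against 70889 to 228766. The summed CPM of the 6 immune miRNAs was 885 to 2223 against 3470 to 9904, and that of the 3 miRNAs of red blood cells 3251 to 4241 against 1070 to 2938. The part of cell makeup in the mammary gland results was not tested.

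Between the 2 intestinal tissues on one side and rumen and liver on the other, the 2 loci went in opposite directions. Products of the miR-423 hairpin were highest in rumen and liver and low in duodenum and jejunum, while the 3 products of the miR-191/miR-425 cluster were all highest in duodenum and jejunum. Together the 2 arms of miR-423 took 0.296% ± 0.070 of the reads of rumen, 0.276% ± 0.096 of liver, 0.144% ± 0.089 of mammary gland, 0.0963% ± 0.042 of jejunum and 0.0764% ± 0.022 of duodenum (SD, n = 18). The miR-191/miR-425 cluster took 2.09% ± 0.29 in duodenum, 1.99% ± 0.44 in jejunum, 1.14% ± 0.34 in rumen, 1.07% ± 0.56 in mammary gland and 0.844% ± 0.18 in liver (SD, n = 18).

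**Figure D1:**
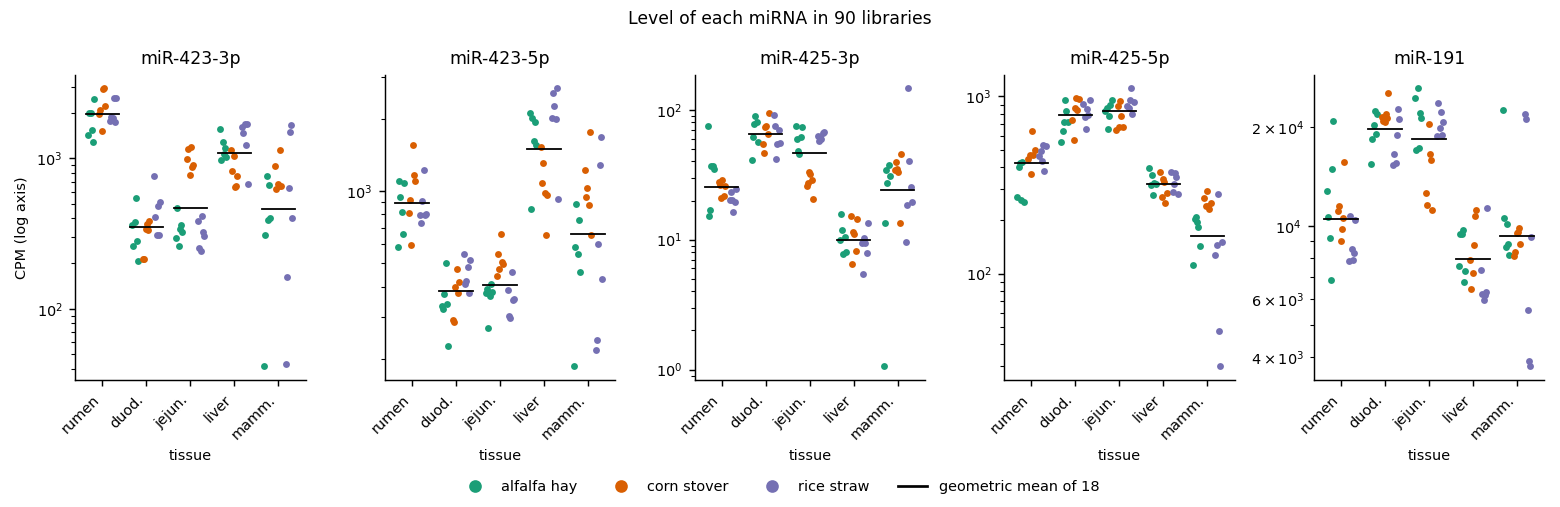
Level of each of the 5 miRNAs in CPM on a log axis, by tissue (rumen, duodenum, jejunum, liver, mammary gland), with 1 point per library coloured by diet and a line at the geometric mean of 18 libraries. The rumen points of miR-423-3p (1276 to 2921 CPM) lie above all duodenum and jejunum points, and the mammary gland points span the widest range for each miRNA, from 41.6 to 1659 CPM for miR-423-3p.

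The level of miR-423-3p, an arm in use as a reference, was 1276 to 2921 CPM in rumen with a median of 1988, 647 to 1698 in liver with a median of 1103, 41.6 to 1659 in mammary gland with a median of 643, 242 to 1183 in jejunum with a median of 373, and 207 to 768 in duodenum with a median of 348. Rumen did not overlap with duodenum or jejunum. On log2(CPM + 1), the scale of all tissue differences given here, rumen exceeded duodenum by 2.50 ± 0.24 (SE, a 5.67-fold difference) and liver by 0.87 ± 0.24 (limma, adjusted p = 2.78e-16 and 0.00061). With upper-quartile scaling rumen and liver were 0.15 apart (adjusted p = 0.49). Liver exceeded jejunum by 1.22 ± 0.24 (limma, adjusted p = 3.08e-06), whereas the neighbours lower in the order, jejunum with mammary gland and mammary gland with duodenum, did not differ beyond their spread (differences of 0.02 ± 0.24 and 0.40 ± 0.24, limma, adjusted p = 0.92 and 0.112). Without the 4 mammary gland libraries that stand apart, mammary gland exceeded duodenum (duodenum minus mammary gland -0.51, limma, adjusted p = 0.00116), as it did with upper-quartile scaling (-0.53, adjusted p = 0.015) and in edgeR (-0.67, adjusted p = 0.000808).

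The other arm, miR-423-5p, followed another order, with liver first. It was at 657 to 2683 CPM in liver with a median of 1592, 584 to 1561 in rumen with a median of 863, 187 to 1767 in mammary gland with a median of 708, 270 to 664 in jejunum with a median of 390, and 226 to 545 in duodenum with a median of 388. The rumen and liver ranges overlapped widely, and all duodenum values lay below all liver values. Liver exceeded rumen by 0.74 ± 0.17, rumen exceeded mammary gland by 0.43 ± 0.17 and mammary gland exceeded jejunum by 0.71 ± 0.17 (limma, adjusted p = 4.69e-05, 0.0169 and 0.000101), and jejunum and duodenum did not differ beyond their spread (0.08 ± 0.17, adjusted p = 0.847). The step from rumen to mammary gland was not past the threshold with upper-quartile scaling (0.11), TMM scaling (0.20) or edgeR (0.06), with adjusted p of 0.544, 0.204 and 0.719.

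miR-191, the most abundant of the 5, was at 15321 to 25468 CPM in duodenum with a median of 20901, 11193 to 26295 in jejunum with a median of 19479, 6847 to 20892 in rumen with a median of 10524, 3752 to 22673 in mammary gland with a median of 9072, and 5942 to 11387 in liver with a median of 7463. By mean level it held place 9 among the miRNAs of duodenum, 12 in jejunum, 16 in mammary gland, 18 in liver and 19 in rumen. Jejunum exceeded rumen by 0.81 ± 0.14 (limma, adjusted p = 2.34e-07). No other neighbouring pair in its order differed beyond the spread (duodenum with jejunum 0.10 ± 0.14, rumen with mammary gland 0.17 ± 0.14 and mammary gland with liver 0.24 ± 0.14, adjusted p = 0.746, 0.236 and 0.118). Without the 4 mammary gland libraries that stand apart, mammary gland exceeded liver (liver minus mammary gland -0.26, limma, adjusted p = 0.0337), and with upper-quartile scaling the difference turned to 0.16 (adjusted p = 0.4).

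miR-425-5p, the abundant arm of its hairpin, was at 650 to 1110 CPM in jejunum with a median of 859, 551 to 978 in duodenum with a median of 808, 254 to 641 in rumen with a median of 439.8, 251 to 395 in liver with a median of 324, and 30.1 to 294 in mammary gland with a median of 200.2. Mammary gland lay below all duodenum and jejunum values, and jejunum lay above all rumen values. Duodenum exceeded rumen by 0.90 ± 0.13, and liver exceeded mammary gland by 0.97 ± 0.13 (limma, adjusted p = 2.38e-09 and 2.61e-10). Rumen exceeded liver by 0.38 ± 0.13 (adjusted p = 0.00584) on the CPM as deposited, but the difference turned to -0.34 with upper-quartile scaling and to -0.06 with TMM scaling.

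miR-425-3p, the low arm, was at 41.3 to 93.8 CPM in duodenum with a median of 67.1, 20.6 to 74.6 in jejunum with a median of 58.1, 15.1 to 75.2 in rumen with a median of 24.0, 1.07 to 146 in mammary gland with a median of 32.1, and 5.45 to 15.8 in liver with a median of 10.1. The lowest mammary gland value was a single read in the shallowest library. Liver did not overlap with duodenum or jejunum, and duodenum exceeded liver by 2.58 ± 0.21, a 5.99-fold difference (limma, adjusted p = 4.42e-19). Rumen and mammary gland did not differ beyond their spread (0.02 ± 0.21, adjusted p = 0.937).

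Counted over the pairs of tissues, most miRNAs of these tables differed, and the members did so at a similar rate. In the F test over the 5 tissues all 5 members passed the threshold of an adjusted p under 0.05, as did 100% of the 289 miRNAs. Rumen differed from duodenum and from jejunum in all 5 members (2 higher and 3 lower in rumen), where 72.7% and 75.8% of all miRNAs passed, and from liver in all 5 (4 higher, 1 lower), where 84.4% passed. Duodenum and jejunum each differed from liver in all 5 members (3 higher, 2 lower), beside 82.7% and 84.8% of all miRNAs. Against mammary gland, 3 members passed for rumen (84.8% of all), 4 for duodenum (82.7%), 4 for jejunum (81.3%) and 4 for liver (70.2%). Other settings moved these counts: rumen had 2 with upper-quartile or TMM scaling and 4 with libraries of at least 2000000 reads, duodenum had 5 with upper-quartile scaling, in edgeR, with at least 2000000 reads and without the libraries that stand apart, and liver had 5 without the libraries that stand apart. Between duodenum and jejunum 0 members passed in limma (11.4% of all miRNAs), with 1 member at an unadjusted p under 0.05 and 1 in edgeR, where miR-425-3p was higher in duodenum. Without the 4 mammary gland libraries that stand apart, which also enter the pooled error, 2 members passed, with miR-425-3p higher by 0.46 and miR-423-3p lower by 0.42 in duodenum, as did 24.6% of all miRNAs. The jejunum corn stover values that the choice of members used enter this pair of tissues, so nothing is read from these 2 calls. The jejunum and liver values of the rule also enter the other pairs with these tissues. The median size of the members' differences was 1.22 between rumen and duodenum (0.71 over all miRNAs) and 0.74 between rumen and liver (1.17 over all). Upper-quartile scaling moved the median difference of all miRNAs between rumen and liver by -0.70 and TMM scaling by -0.43. With the former, miR-425-3p stayed higher in rumen (0.59, adjusted p = 0.00228) and both miR-423-5p (-1.46) and miR-425-5p (-0.34) were lower. The 18 libraries of each tissue came from the same 18 cows, so the groups compared are not independent.

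The summed CPM of the immune list of 6 miRNAs was, like the miR-191/miR-425 cluster, highest in duodenum and jejunum. The sum was 17743 to 46516 in duodenum and 19730 to 37150 in jejunum, against 3613 to 11333 in rumen, 4797 to 12681 in liver and 885 to 9904 in mammary gland. A large part of it can be 1 miRNA, since miR-142-5p alone had a mean of 11730 CPM over the libraries. The part of immune cells in the tissue profile of the locus was not tested. Over the 15 tissue and diet groups, the 3 miRNAs whose mean-centred profiles lay nearest to that of miR-425-5p were miR-342, miR-142-5p (a miRNA of blood cells that is on the immune list) and miR-95, at root mean square distances of 0.35, 0.37 and 0.40 log2 units, where the median distance over all miRNAs was 1.11. Nearest to miR-191 were miR-2285k (0.26), miR-2284aa (0.31) and miR-545-3p (0.34), with a median distance of 0.89. Nearest to miR-425-3p were miR-2285k (0.41), miR-324 (0.42) and miR-181c (0.43), with a median of 1.09. The cluster partner miR-191 came in place 21 for miR-425-5p (0.58) and in place 5 for miR-425-3p (0.50), and the opposite arm miR-425-3p came only in place 74 for miR-425-5p (0.83). Nearest to miR-423-3p were miR-224 (0.41), miR-328 (0.42) and miR-1296 (0.43), with a median of 1.21, and nearest to miR-423-5p were miR-331 (0.37), miR-328 (0.42) and miR-2904 (0.42), with a median of 1.07. The 2 arms of miR-423 were at a distance of 0.66 from each other, place 14 seen from miR-423-3p and place 32 seen from miR-423-5p.

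The ratio of the 2 arms within a library does not depend on scaling between libraries, and for miR-423 it changed side between tissues. In rumen the 3p arm exceeded the 5p arm in 18 of 18 libraries, with ratios of 1.83 to 3.14 and a median of 2.22. In liver the 5p arm exceeded the 3p arm in all libraries but 1, with ratios of 0.570 to 1.15 and a median of 0.735, and the exception was alfalfa hay library 2, the one with miR-205. In duodenum the 3p arm was the higher in 4 of 18 libraries (0.732 to 1.41, median 0.902), in jejunum in 7 of 18 (0.787 to 2.26, median 0.948) and in mammary gland in 2 of 18 (0.199 to 1.17, median 0.739). The mean log2 ratio was 1.15 ± 0.20 in rumen and -0.46 ± 0.25 in liver (SD, n = 18), a difference of 1.61 ± 0.076 (SE) with an adjusted p = 3e-05 in the permutation test over 30 comparisons of ratios, which follows from the smallest p that 100000 permutations can give, 1e-05. Of the 10 pairs of tissues, 9 passed the threshold. Among the 9 was duodenum with jejunum, where the corn stover ratios of jejunum belong to the rule: the mean log2 ratio was -0.29 in duodenum and 0.91 in jejunum on corn stover, -0.07 and -0.11 on alfalfa hay and -0.04 and -0.18 on rice straw, so nothing is read from that call. The other pairs with jejunum, also among the 9, hold the same corn stover ratios. On alfalfa hay and rice straw jejunum lay below rumen (1.05 and 1.22) and above liver (-0.47 and -0.56) and mammary gland (-0.69 and -0.44). These diets alone were not tested. In a permutation test with sample numbers as a replicate block, duodenum with jejunum and duodenum with mammary gland had adjusted p of 0.0646 and 0.056. Liver and mammary gland differed by 0.07 ± 0.17 (permutation test, adjusted p = 0.752).

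**Figure D2:**
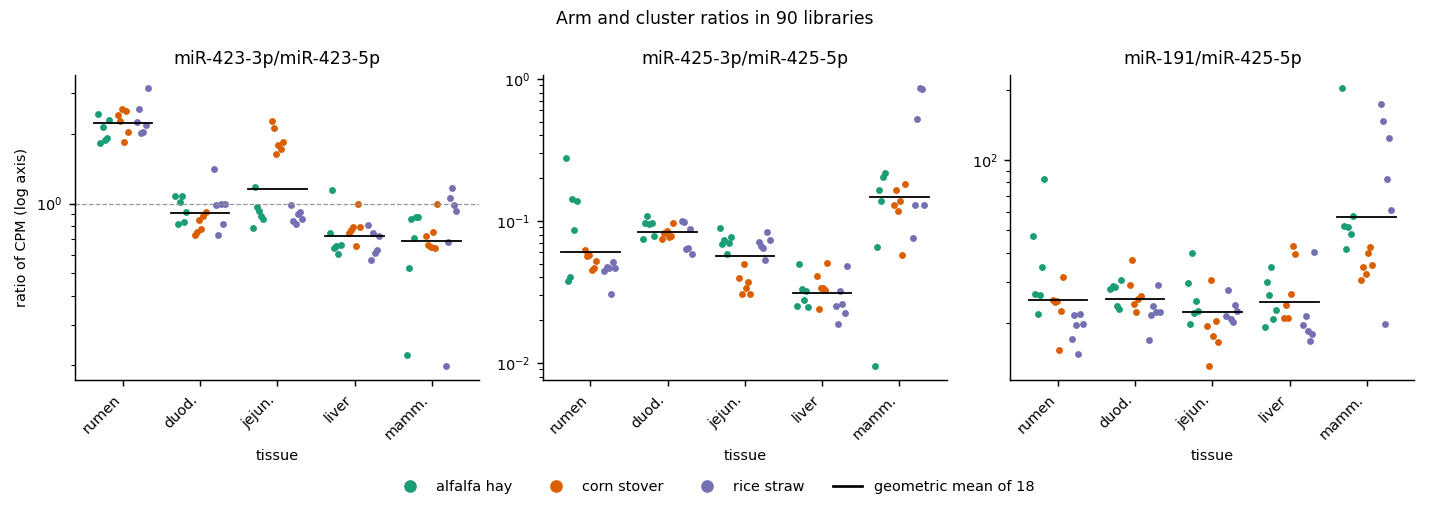
Ratio of CPM within each library on log axes, for miR-423-3p/miR-423-5p (dashed line at equal levels), miR-425-3p/miR-425-5p and miR-191/miR-425-5p, by tissue and coloured by diet, with a line at the geometric mean of 18 libraries. All 18 rumen points and all 6 jejunum corn stover points of the first panel lie above 1, and the mammary gland points of the last panel reach 202.

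For miR-425 the 5p arm exceeded the 3p arm in every one of the 90 libraries, but by very different factors. The ratio miR-425-3p/miR-425-5p had a median of 0.0320 in liver (0.0188 to 0.0503), 0.0494 in rumen (0.0304 to 0.277), 0.0653 in jejunum (0.0305 to 0.0896), 0.0839 in duodenum (0.0585 to 0.109) and 0.138 in mammary gland (0.00952 to 0.855). Between liver and mammary gland the mean log2 ratio differed by -2.21 ± 0.32 (permutation test, adjusted p = 3e-05), and 9 of 10 pairs of tissues passed. Here too duodenum with jejunum was among the 9 and holds the jejunum corn stover ratios of the rule, with mean log2 ratios of -3.59 and -4.73 on corn stover, -3.44 and -3.77 on alfalfa hay and -3.68 and -3.86 on rice straw. The pairs of jejunum with liver and with mammary gland, also among the 9, hold these corn stover ratios too. Rumen and jejunum differed by 0.12 ± 0.22 (adjusted p = 0.677). Rumen and duodenum differed by -0.42 ± 0.19, with an adjusted p = 0.0466 in the permutation test. With sample numbers as a replicate block the permutation test gave this pair an adjusted p of 0.0609.

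Between the 2 hairpins of the miR-191/miR-425 cluster the ratio was alike in 4 tissues and higher in the fifth. miR-191 exceeded miR-425-5p with a median ratio of 23.6 in rumen, 24.8 in duodenum, 21.7 in jejunum and 22.1 in liver, against 49.96 in mammary gland. The 6 differences among the first 4 tissues ran from -0.14 ± 0.13 (jejunum minus liver) to 0.19 ± 0.10 log2 units (duodenum minus jejunum), and 0 of the 6 passed the permutation test, with adjusted p from 0.104 to 0.935. Mammary gland exceeded each of the 4, by 1.17 ± 0.26 over rumen and 1.35 ± 0.24 over jejunum (permutation test, adjusted p = 0.00014 and 3e-05). Without the 4 libraries that stand apart these differences were 0.81 and 0.99, still past the threshold (adjusted p = 0.00113 and 3.33e-05). The highest ratios, 125 to 202, were in mammary gland rice straw 1, 2 and 5 and alfalfa hay 1. Ratios between different sequences also hold the ligation and PCR preferences of small RNA libraries, so their absolute size is less certain than their change between tissues.

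Library by library, the 2 arms of miR-423 went together within each tissue. On log2(CPM + 1) Pearson's r was 0.84 in rumen, 0.90 in duodenum, 0.92 in liver and 0.93 in mammary gland, and Spearman's rho was 0.82, 0.88, 0.94 and 0.94 (permutation tests, n = 18, adjusted p from 3.75e-05 to 9e-05 over 15 relations). Without the 2 libraries farthest from the median of miR-423-3p, r was 0.83, 0.90, 0.90 and 0.93. With diet means removed r was 0.85, 0.90, 0.86 and 0.93. In jejunum the corn stover libraries formed a cluster of their own, so r was taken within the clusters, a choice made after seeing the data: it was 0.85 over the 12 libraries of the other 2 diets (rho 0.88, permutation test, adjusted p = 0.00232 and 0.0016 over 4 relations, and 0.90 without the 2 farthest), and 0.68 over the 6 corn stover libraries (rho 0.60, exact permutation test, adjusted p = 0.165 and 0.456, and 0.36 without the 2 farthest).

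**Figure D3:**
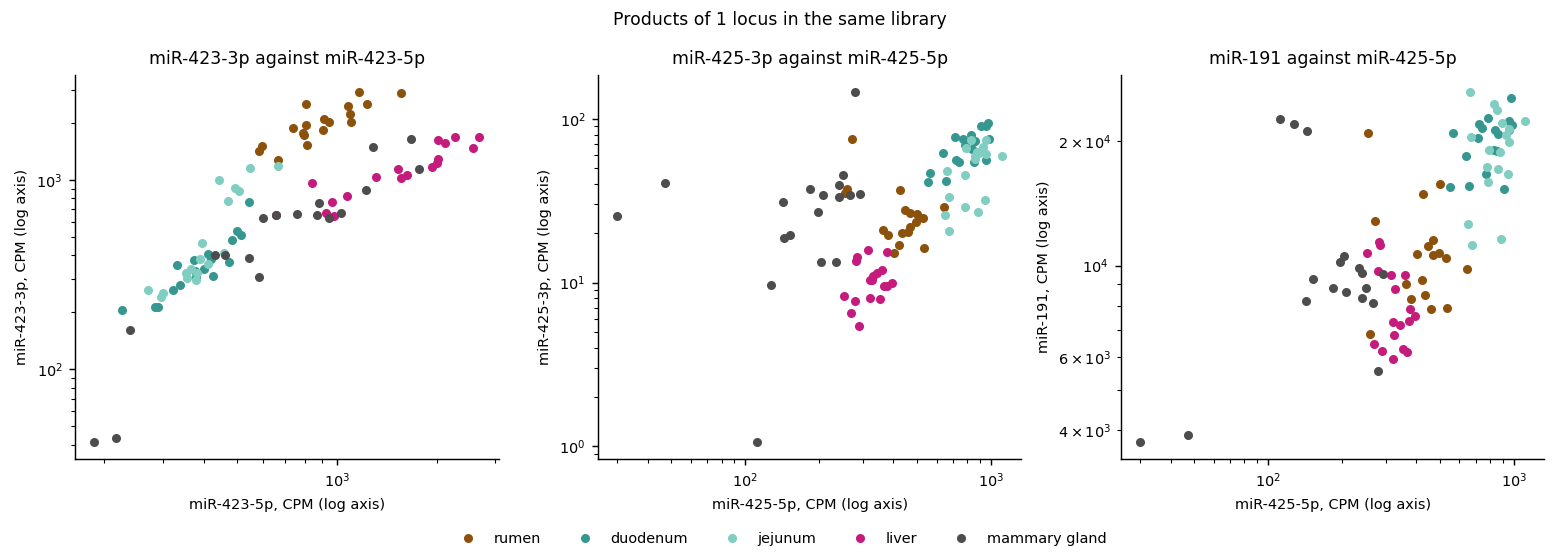
Products of 1 locus plotted against each other in the same 90 libraries, in CPM on log axes and coloured by tissue: miR-423-3p against miR-423-5p, miR-425-3p against miR-425-5p, and miR-191 against miR-425-5p. In the first panel the rumen points have more miR-423-3p for a given miR-423-5p (ratios of 1.83 to 3.14) than the liver points (0.570 to 1.15) and the duodenum and jejunum points overlap, while the last panel shows 3 mammary gland libraries with miR-191 between 21143 and 22673 CPM beside miR-425-5p at 112 to 144 CPM.

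The products of the miR-191/miR-425 cluster were tied less closely. miR-425-3p and miR-425-5p had r = 0.72 and rho = 0.60 in duodenum (permutation tests, n = 18, adjusted p = 0.00247 and 0.0241, and r = 0.60 without the 2 farthest). In liver r was 0.29 and rho 0.26 (adjusted p = 0.28 and 0.409, 0.27 without the 2 farthest), and in mammary gland r was 0.25 and rho 0.51 (adjusted p = 0.297 and 0.0679, 0.07 without the 2 farthest). In rumen r was -0.52 and rho -0.19 (adjusted p = 0.055 and 0.516), and r was -0.40 without the 2 farthest libraries. Within the jejunum clusters r was 0.47 over the 12 libraries (rho 0.30, adjusted p = 0.165 and 0.456, -0.21 without the 2 farthest) and 0.39 over the 6 (rho 0.26, exact permutation test, adjusted p = 0.467 and 0.658, 0.76 without the 2 farthest).

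For miR-191 with miR-425-5p, r ran from -0.41 in liver to 0.43 in duodenum and rho from -0.32 to 0.43, with adjusted p from 0.124 to 0.461 for r and from 0.125 to 0.9 for rho (permutation tests, n = 18 in each tissue), and 0 of 5 tissues passed. With the 4 libraries that stand apart left out, r in mammary gland was -0.51 in place of 0.32 (permutation test, n = 14, adjusted p = 0.0917). Without the 2 libraries farthest from the median of miR-191, r was 0.59 in mammary gland, 0.47 in duodenum, 0.24 in jejunum, -0.11 in rumen and -0.27 in liver.

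In jejunum the corn stover group differed from both other diets in both loci and in opposite directions. The 3p arm of miR-423 was at 773 to 1183 CPM on corn stover with a median of 953, against 262 to 464 on alfalfa hay with a median of 331 and 242 to 412 on rice straw with a median of 314. All 6 corn stover libraries lay above all 12 others. The differences in mean log2(CPM + 1) were 1.53 ± 0.16 to alfalfa hay and 1.63 ± 0.16 to rice straw (SE), 2.89-fold and 3.09-fold. The 5p arm was higher as well, but by less: it was at 441 to 664 CPM with a median of 501 on corn stover, 270 to 410 with a median of 378 on alfalfa hay and 297 to 458 with a median of 354 on rice straw, and 1 rice straw library lay within the corn stover range. Its differences were 0.51 ± 0.13 and 0.54 ± 0.13.

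The 3p arm of miR-425 was at 20.6 to 33.2 CPM on corn stover in jejunum with a median of 28.0, against 45.6 to 74.6 on alfalfa hay with a median of 60.9 and 57.0 to 67.4 on rice straw with a median of 62.0. Here all 6 corn stover libraries lay below all 12 others, and the differences were -1.08 ± 0.15 and -1.14 ± 0.15, 2.12-fold and 2.21-fold. miR-191 was at 11193 to 20454 CPM with a median of 14253 on corn stover, 17080 to 26295 with a median of 21756 on alfalfa hay and 18780 to 23765 with a median of 20346 on rice straw, so 5 of 6 corn stover libraries lay below each other diet and 1 did not. Its differences were -0.56 ± 0.15 and -0.53 ± 0.15. miR-425-5p was at 650 to 946 CPM with a median of 727 on corn stover, 659 to 955 with a median of 847 on alfalfa hay and 792 to 1110 with a median of 903 on rice straw, overlapping with both, and its differences were -0.12 ± 0.12 and -0.27 ± 0.12. Between rice straw and alfalfa hay the 5 differences ran from -0.10 to 0.15.

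Among all 337 miRNAs of jejunum, 2.08% had corn stover values above all values of the other 2 diets, miR-423-3p among them, and 3.86% had them below, miR-425-3p among them. These contrasts belong to the rule that chose the members, so nothing is read from the shares. The marker lists gave, in summed CPM on corn stover and on the other 2 diets together, 157044 to 305331 and 144396 to 298094 for the 3 intestinal miRNAs, 4714 to 10702 and 6343 to 9966 for the 5 epithelial ones, 19730 to 32062 and 23874 to 37150 for the 6 immune ones, 184735 to 297235 and 147342 to 247253 for the 4 smooth muscle ones and 280.1 to 2030 and 345 to 1005 for the 3 of red blood cells. The stratified epithelium list had 1 of its 3 miRNAs listed in jejunum, at 8.13 to 478 CPM and 183 to 476 CPM. All these ranges overlapped. By library, however, the smooth muscle sum lay above all 12 others in 4 of 6 corn stover libraries (medians of 257257 and 192149), the immune sum below all others in 3 of 6 (medians of 24056 and 33355), and the 1 stratified epithelium miRNA below all others in 3 of 6, at 8.13 to 37.7 CPM. For these last 2 lists the libraries were the same, corn stover 1, 2 and 6. Their miR-191 was at 11193 to 12582 CPM, against 15924 to 20454 in corn stover 3, 4 and 5. For miR-423-3p the values were 908 to 1159 and 773 to 1183 CPM. Of single markers miR-1 was the only one without overlap. It is 1 of the 4 on the smooth muscle list and was lower on corn stover, against the direction of the sum of that list. The part of cell makeup in the diet differences was not tested.

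**Figure D4:**
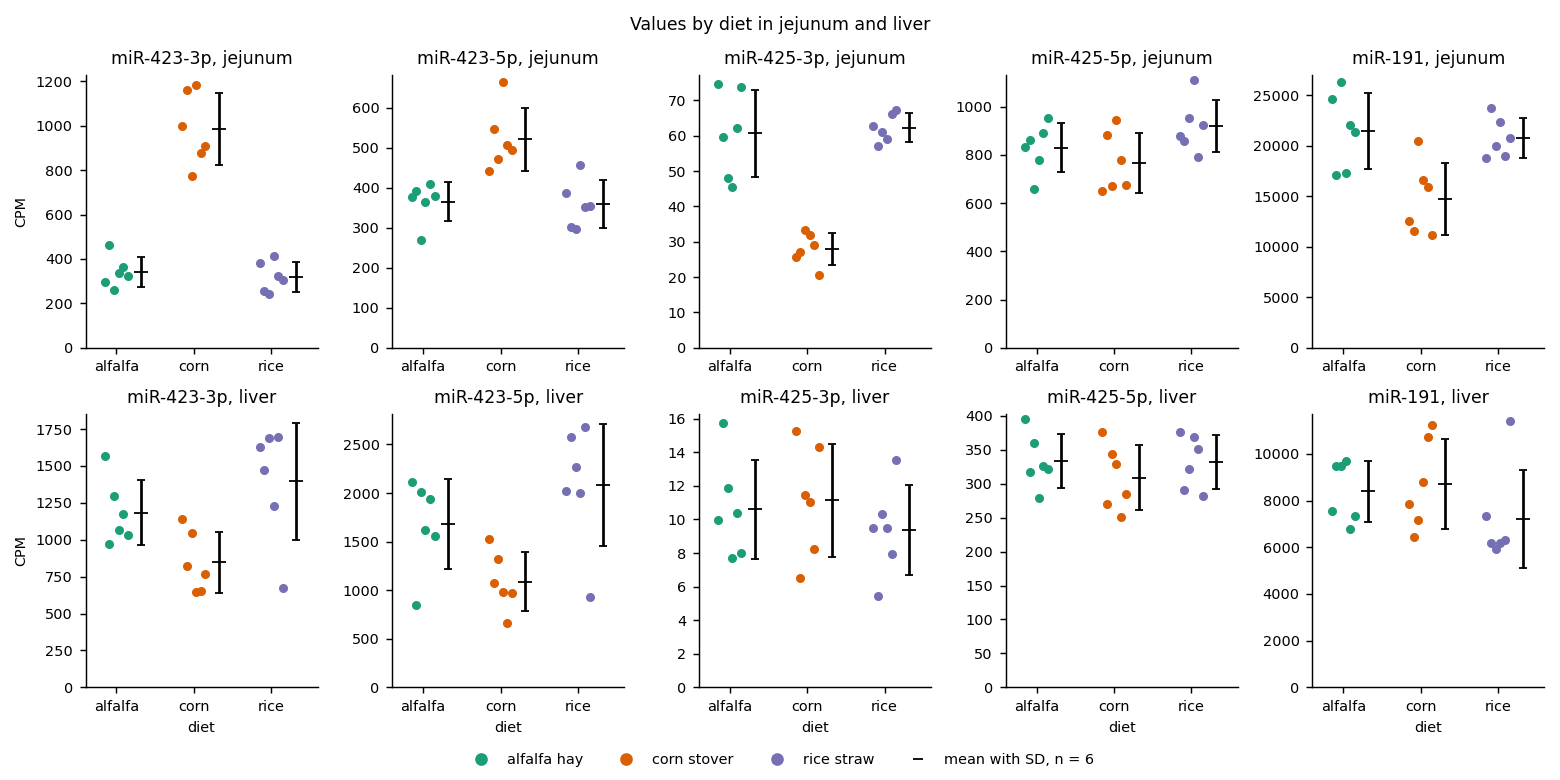
CPM of the 5 miRNAs in jejunum (top) and liver (bottom) by diet, 1 point per library with mean and SD of 6 beside it, on linear axes that start at 0. In jejunum the corn stover points of miR-423-3p (773 to 1183) lie above and those of miR-425-3p (20.6 to 33.2) below all points of the other diets, whereas in liver the groups overlap for all 5 miRNAs.

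Both arm ratios in jejunum were accordingly different on corn stover. The ratio miR-423-3p/miR-423-5p was 1.64 to 2.26 on corn stover, where the 3p arm was the higher in 6 of 6 libraries, 0.787 to 1.18 on alfalfa hay and 0.816 to 0.986 on rice straw, with differences in mean log2 ratio of 1.02 ± 0.11 and 1.09 ± 0.083 (SE) and no overlap. The ratio miR-425-3p/miR-425-5p was 0.0305 to 0.0495 on corn stover, 0.0585 to 0.0896 on alfalfa hay and 0.0532 to 0.0836 on rice straw, with differences of -0.96 ± 0.13 and -0.87 ± 0.14 and no overlap. The ratio miR-191/miR-425-5p overlapped between all diets (13.1 to 30.5 on corn stover, 19.8 to 39.9 on alfalfa hay and 20.1 to 27.7 on rice straw), with differences of -0.44 ± 0.22 and -0.26 ± 0.18.

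In liver the direction for miR-423 was the other one. miR-423-3p was at 647 to 1143 CPM on corn stover with a median of 795, 969 to 1569 on alfalfa hay with a median of 1117 and 674 to 1698 on rice straw with a median of 1547. miR-423-5p was at 657 to 1527 CPM with a median of 1030 on corn stover, 843 to 2112 with a median of 1779 on alfalfa hay and 929 to 2683 with a median of 2143 on rice straw. Corn stover was lower than alfalfa hay by a difference of -0.50 ± 0.21 for the 3p arm and -0.62 ± 0.26 for the 5p arm, and lower than rice straw by -0.69 ± 0.21 and -0.91 ± 0.26, with overlap in every case. In all, 0% of the 330 liver miRNAs had corn stover values above, and 0% below, all values of the other 2 diets. Without alfalfa hay library 2 the differences to alfalfa hay were -0.55 and -0.80. Both arms went together in liver, so the arm ratio differed little, by 0.12 ± 0.16 and 0.22 ± 0.11.

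In liver the corn stover differences of the miR-191/miR-425 cluster were smaller than those of miR-423. miR-425-5p was at 251 to 376 CPM on corn stover, 279 to 395 on alfalfa hay and 281 to 376 on rice straw, with differences of -0.11 ± 0.13 to both. miR-425-3p was at 6.50 to 15.3 CPM on corn stover, 7.71 to 15.8 on alfalfa hay and 5.45 to 13.5 on rice straw, with differences of 0.05 ± 0.23 and 0.22 ± 0.23. On corn stover miR-191 was at 6451 to 11227 CPM with a median of 8321. It was at 6784 to 9713 on alfalfa hay (median 8521) and 5942 to 11387 on rice straw (median 6249). The differences of corn stover were 0.04 ± 0.17 and 0.28 ± 0.17. Rice straw minus alfalfa hay was -0.24 ± 0.17 for miR-191, with 4 of 6 rice straw libraries below all alfalfa hay values. The rice straw value of 11387 was library 6, and the other libraries were at 5942 to 7354. For each marker list the summed CPM of the liver corn stover libraries overlapped with that of the other 2 diets, and no single marker was without overlap.

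**Figure D5:**
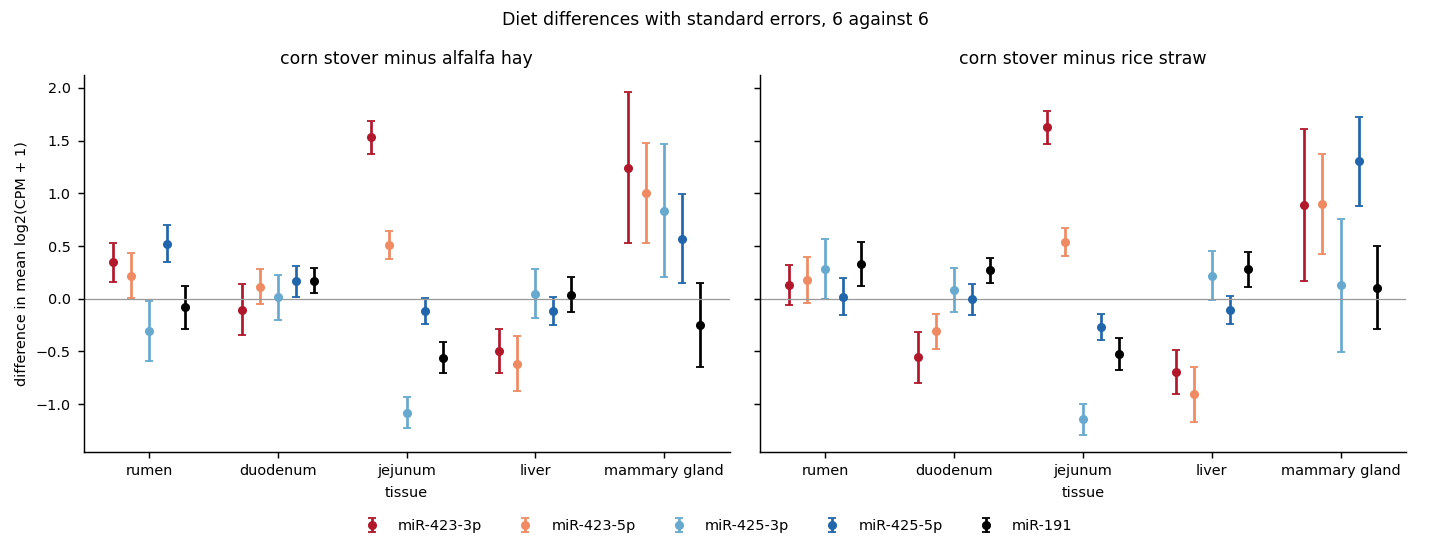
Difference in mean log2(CPM + 1) between corn stover and alfalfa hay (left) and between corn stover and rice straw (right) for the 5 miRNAs in each tissue, with standard errors from the fit within the tissue (6 against 6 libraries). The jejunum differences reach 1.63 for miR-423-3p and -1.14 for miR-425-3p, and the error bars are widest in mammary gland.

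In the 3 tissues outside the rule the diet differences were tested. In rumen 0 of 5 members passed limma in each of the 3 diet pairs, where 0% of 335 miRNAs passed for corn stover against alfalfa hay and against rice straw and 2.69% for rice straw against alfalfa hay. At an unadjusted p under 0.05 there were 1, 0 and 1 members, and edgeR called 0 in each. The nearest was miR-425-5p, at 254 to 427 CPM on alfalfa hay with a median of 337, 364 to 641 on corn stover with a median of 468 and 381 to 535 on rice straw with a median of 477. It was 1.44-fold higher on corn stover and 1.42-fold higher on rice straw than on alfalfa hay, by 0.52 ± 0.18 and 0.50 ± 0.18 (limma, adjusted p = 0.131 and 0.0924), and 5 of 6 libraries of each lay above all of alfalfa hay. The lowest values, 271, 259 and 254 CPM, were in alfalfa hay libraries 1, 4 and 6. Their median absolute log2 deviations were 0.56, 0.33 and 0.53, against at most 0.28 on the other 2 diets. Their immune sums were 8498, 3732 and 3613 CPM, against at least 7081 on the other 2 diets. The part of cell makeup was not tested.

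In duodenum, the intestinal neighbour of jejunum, 0 of 5 members and 0% of 336 miRNAs passed in each pair of diets, with 0, 2 and 1 members at an unadjusted p under 0.05 and 0 in edgeR. There miR-423-3p was at 213 to 384 CPM on corn stover, 207 to 541 on alfalfa hay and 307 to 768 on rice straw. The differences of corn stover were -0.10 ± 0.24 to alfalfa hay and -0.56 ± 0.24 to rice straw (adjusted p = 0.993 and 0.312), and those of miR-425-3p were 0.01 ± 0.21 and 0.08 ± 0.21 (adjusted p = 0.993 and 0.896). In the same diet, the 6 duodenum and the 6 jejunum libraries of corn stover were at 213 to 384 and 773 to 1183 CPM for miR-423-3p. For miR-425-3p they were at 46.6 to 93.8 and 20.6 to 33.2 CPM. These ranges do not overlap, a description that shares its jejunum values with the rule. The share of all miRNAs without overlap in this comparison was not taken, so nothing is read from it.

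In mammary gland 1 member passed for corn stover against rice straw, where 26.6% of 323 miRNAs passed, and 0 members for the other 2 pairs, where 0% passed (1 and 0 members at an unadjusted p under 0.05, 0 in edgeR). The one was miR-425-5p, at 233 to 294 CPM on corn stover with a median of 246, 30.1 to 280 on rice straw with a median of 136, and 112 to 208 on alfalfa hay with a median of 190.1. It was higher on corn stover than on rice straw by 1.30 ± 0.42, a 2.47-fold difference (limma, adjusted p = 0.0298), and 1 rice straw library lay inside the corn stover range. The call was lost with upper-quartile scaling (0.38), TMM scaling (0.56) and edgeR (0.32), and without the 4 libraries that stand apart (0.47, adjusted p = 0.128). Without those libraries the 2 arms of miR-423 passed in its place, by 1.12 for miR-423-3p and 1.38 for miR-423-5p (adjusted p = 0.0385 and 0.00626), where 75 of 326 miRNAs (23.0%) passed. Corn stover miR-425-5p was also above all alfalfa hay values, with a mean difference of 0.57 ± 0.42 (limma, adjusted p = 0.484). The share of all miRNAs above alfalfa hay alone was not taken, so nothing is read from this. Of 328 miRNAs in mammary gland, 8 had corn stover values above all values of both other diets, with no member among them.

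The ratios did not pass between diets in any of the 27 comparisons in rumen, duodenum and mammary gland. The nearest were for miR-191/miR-425-5p: rice straw was lower than alfalfa hay in rumen (14.8 to 21.8 against 21.9 to 82.4, a log2 difference of -0.91 ± 0.30, exact permutation test, p = 0.00216, which is the smallest that 6 against 6 can give, adjusted p = 0.0584), and corn stover was lower than alfalfa hay in mammary gland (30.5 to 42.4 against 41.5 to 202, -0.82 ± 0.35, exact permutation test, p = 0.00433, adjusted p = 0.0584). Without the 4 libraries that stand apart the latter was -0.48 (permutation test, adjusted p = 0.0877). In rumen the 2 groups did not overlap. The highest miR-425-3p/miR-425-5p ratios in rumen were also on alfalfa hay, where that ratio ran from 0.0376 to 0.277 against 0.0304 to 0.0622 on the other 2 diets. It was highest in alfalfa hay libraries 1, 4 and 6, at 0.277, 0.143 and 0.138.

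The members differed in how steady they were as references. The SD of log2(CPM + 1) over the 90 libraries was 0.68 for miR-191, place 74 from the lowest among 289 miRNAs, 0.92 for miR-423-5p (place 158), 0.98 for miR-425-5p (173), 1.12 for miR-425-3p (205) and 1.24 for miR-423-3p (227), where the median of all was 0.89. Within the 15 groups the SD was 0.38 for miR-425-5p (place 60), 0.42 for miR-191 (93), 0.51 for miR-423-5p (167), 0.66 for miR-425-3p (238) and 0.73 for miR-423-3p (261). Without the 4 mammary gland libraries that stand apart these became 0.24 (place 28), 0.32 (89), 0.38 (152), 0.50 (221) and 0.41 (173), with a median of 0.38 over all miRNAs. The place of miR-191 depended on scaling. With upper-quartile and TMM scaling of the 90 libraries its SD within groups was 0.56 (place 216) and 0.57 (219). Its places over the 90 libraries were then 108 and 123. The SDs over all libraries hold the diet differences of jejunum and liver on which the members were chosen. A list of 15 other miRNAs in common use as references had SDs over the 90 libraries from 0.41 (miR-151-5p) to 0.98 (miR-24-3p) with a median of 0.64. Of that list, 0 passed in any diet pair of rumen and duodenum and 5 for corn stover against rice straw in mammary gland (1 in edgeR, 8 without the libraries that stand apart).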

How the data were processed

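Small RNA libraries of 90 tissue samples were analysed. Per the paper's methods, the authors made TruSeq Small RNA libraries, sequenced them on an Illumina instrument, and aligned trimmed reads with sRNAbench to miRBase bovine precursors, with multiple mappings allowed. The submitters' notes name CASAVA 1.8. The deposited values are CPM, scaled by the authors to 1000000 reads mapped to miRNAs in each library. All of them (100% in each library, tolerance 0.05 of a read) were whole multiples of 1 step, so whole reads were recovered for edgeR. No build is named, and coordinates and mature sequences are not used here.

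The members and all lists were chosen with earlier results of these data known. Groups came from the labels. limma 3.58.1 (R 4.3.3) with an intensity trend was fitted to log2(CPM + 1), over 289 miRNAs with 15 group means for tissues and within a tissue for diets, after a filter that asked for over 1 CPM in over 50% of the libraries of any tissue. Adjusted p are Benjamini-Hochberg over all miRNAs tested, threshold 0.05. All tests are two-sided. Tissue ratios were compared by 100000 permutations, diet ratios by all 924 splits, with numpy 2.4.6 (Python 3.11.15). Distances are root mean square differences of mean-centred group profiles, and the 3 nearest miRNAs were named for each member. Alternatives were pseudocounts of 0.1 and 5 CPM, a mean of at least 10 CPM, no filter, upper-quartile and TMM scaling, edgeR 4.0.16 quasi-likelihood tests, a replicate block, libraries of at least 2000000 reads, tissue alone as the model, and, chosen after seeing the data, leaving out libraries that stand apart (median absolute log2 deviation above 0.6) or liver alfalfa hay library 2. The fits were tested on simulated counts with 60 miRNAs changed by 1 log2 unit. Between rumen and duodenum 58 were recovered, with 2 false calls. For corn stover against rice straw 34 were recovered in rumen, 50 in duodenum and 8 in mammary gland, with 1, 8 and 2 false calls. A member without a call between diets can thus still differ, most of all in mammary gland. Samples of a group came from separate cows.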

Additional observations from a re-analysis of the deposited data

Results flagged for a closer look

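Within each group of 6 libraries the highest and lowest value of each miRNA and ratio was compared with its nearest neighbour, and in 16 of 120 such groups the gap was a larger part of the whole range than Dixon's limit for 6 values allows, which chance exceeds in about 1 of 20 groups. Of these, 5 were in the 4 mammary gland libraries that stand apart. In alfalfa hay library 1, miR-423-3p was at 41.6 CPM (others 308 to 760), miR-425-3p at 1.07 CPM (others 13.4 to 37.3), miR-191 at 22673 CPM (others 8189 to 10563) and the ratio miR-191/miR-425-5p at 202 (others 41.5 to 57.3). In rice straw library 1 the ratio miR-423-3p/miR-423-5p was 0.199 (others 0.679 to 1.17).

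Among the other mammary gland libraries, corn stover 5 had miR-425-3p at 13.4 CPM (others 33.2 to 45.4) and corn stover 6 a miR-423-3p/miR-423-5p ratio of 0.993 (others 0.645 to 0.752).

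In liver rice straw library 6, miR-423-3p was at 674 CPM (others 1228 to 1698), miR-423-5p at 929 CPM (others 2002 to 2683), miR-191 at 11387 CPM (others 5942 to 7354) and the ratio miR-191/miR-425-5p at 40.5 (others 16.8 to 21.4). In liver alfalfa hay library 2, the library with miR-205, miR-423-5p was at 843 CPM (others 1560 to 2112) and the ratio miR-423-3p/miR-423-5p at 1.15 (others 0.605 to 0.743).

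The remaining 3 were miR-423-5p at 270.1 CPM in jejunum alfalfa hay library 3 (others 364 to 410), miR-191 at 25468 CPM in duodenum corn stover library 6 (others 20824 to 21899) and the ratio miR-425-3p/miR-425-5p at 0.0304 in rumen rice straw library 4 (others 0.0442 to 0.0514).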

How the results depend on the processing

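Over all alternatives, of the results that answer a comparison 396 settings gave the same outcome, 5 were stronger, 9 weaker and 2 moved. Of the single values 719 were the same, 12 stronger, 16 weaker and 28 reversed. A small move in a count of members or in a described difference was taken as the same. Some outcomes could not change. Leaving out mammary gland libraries leaves the ratios and relations of other tissues as they are, and a replicate block does not move the size of a difference. No support is read from this tally. The cause was not tested where a value changed. Of the 90 libraries 3 had fewer than 2000000 reads, all in mammary gland.

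Members past the threshold between rumen and liver fell from 5 to 3 with upper-quartile scaling, TMM scaling and edgeR. Between duodenum and jejunum they rose from 0 to 1 with TMM scaling and edgeR, and to 2 with libraries of at least 2000000 reads or without the libraries that stand apart. In mammary gland (corn stover against rice straw) they fell from 1 to 0 with upper-quartile scaling, TMM scaling, edgeR and at least 2000000 reads, and were 2 without the libraries that stand apart.

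Reversed values were as follows. For miR-423-3p, jejunum minus mammary gland was -0.121 with upper-quartile scaling, -0.309 in edgeR, -0.268 with at least 2000000 reads and -0.0918 without the libraries that stand apart. For miR-425-3p, rumen minus mammary gland was -0.0457 with a pseudocount of 5 CPM, -0.255 with upper-quartile scaling, -0.166 with TMM scaling, -0.358 in edgeR (adjusted p = 0.0381), -0.328 with at least 2000000 reads and -0.321 without the libraries that stand apart. With upper-quartile scaling, TMM scaling and edgeR in turn, rumen minus liver was -0.337, -0.0619 and -0.0505 for miR-425-5p and -0.307, -0.0312 and -0.0146 for miR-191, and rumen minus mammary gland was -0.143, -0.0475 and -0.376 for miR-191. Upper-quartile scaling also gave 0.164 for miR-191 in liver minus mammary gland and -0.0984 for miR-425-5p in mammary gland (corn stover minus alfalfa hay). The miR-423 arm ratio, liver minus mammary gland, was -0.119 with at least 2000000 reads and -0.078 without the libraries that stand apart.

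In jejunum, corn stover minus rice straw moved to -0.954 for miR-425-3p with TMM scaling and to -0.0618 for miR-425-5p in edgeR. Tissues with a relation between the 2 arms of miR-425 past the threshold, jejunum pooled included, fell from 2 to 1 with diet means removed or upper-quartile scaling, and in mammary gland its r was -0.41 with upper-quartile scaling. For miR-191 with miR-425-5p, r was 0.0179 in rumen and -0.029 in jejunum with diet means removed, -0.0495 in jejunum with upper-quartile scaling and -0.511 in mammary gland without the libraries that stand apart.

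Sample numbers recur across groups. Same-numbered samples of 1 diet in different tissues correlated with a median r of 0.07 (-0.44 to 0.58, 82 of 180 pairs above 0.1). Samples of 1 diet with other numbers in different tissues had a median r of -0.02 (-0.51 to 0.48, 220 of 900 pairs above 0.1). Same-numbered samples were thus somewhat more alike, but no label says that they came from the same cow. A fit with the number as a replicate block left the counts of members in every contrast unchanged and turned 3 ratio differences past the threshold to adjusted p of 0.0646 (miR-423 arms, duodenum minus jejunum, -0.345), 0.056 (miR-423 arms, duodenum minus mammary gland, 0.394) and 0.0609 (miR-425 arms, rumen minus duodenum, -0.425).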
